A study of Homo sapiens with 12 samples.

Results

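The comparison of SKR6LR with SKR6CA set a breast cancer line selected in the kinase inhibitor lapatinib against a sister line that carries active p65, a subunit of NF-kB. Its members were 6 of the series' 12 expression arrays, the 3 of SKR6LR and the 3 of SKR6CA, chosen by the line named in their labels, and 19775 genes were compared. Both lines were derived from SKBR-3 cells, breast cancer cells of human origin with an amplified HER2 gene (ERBB2), through SKR6, a population sorted by flow cytometry for high HER2. SKR6CA had received CAp65, a constitutively active NF-κB relA/p65, from a retrovirus and had been selected with puromycin. SKR6LR had been kept for several months in lapatinib, which blocks the kinases EGFR and HER2, at concentrations that rose from 0.2 to 5 µM. Its labels name neither virus nor puromycin. The labels name no lapatinib for SKR6CA. The 2 remaining lines, untreated SKR6 and SKR6-Vector with the pQCXIP empty vector and puromycin selection, are the controls of SKR6LR and of SKR6CA, and their levels are given where they bear on a difference. All cells grew in RPMI medium with 10% serum for 48 hours before RNA was taken. The labels add that cells called SKLR were held in 0.2 µM lapatinib, a name that none of the 4 lines bears. Each arm is 1 derived line, so a difference between SKR6LR and SKR6CA can belong to that derivation as well as to drug or p65, and these cannot be told apart.

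NF-kB is a family of dimeric transcription factors built from RELA (p65), RELB, REL, NFKB1 and NFKB2. In resting cells IkB proteins hold the dimers in the cytoplasm, and signals from TNF, interleukin-1 or Toll-like receptors reach the IKK kinases, which mark the IkB proteins for destruction. The freed dimers switch on cytokine, chemokine, adhesion and survival genes and also their own inhibitors, which end the response. HER2 signals through PI3K and ERK, and lapatinib blocks both it and EGFR. The contrast asked how the transcripts of a line made by drug selection compare with those of a line made by forced p65 activity.

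Differences are SKR6LR minus SKR6CA on the log2 scale, so that 1 is a doubling, and the SE comes from the limma model of the 6 arrays. A gene is called higher or lower in SKR6LR when its limma p-value, corrected for all 19775 genes by the Benjamini-Hochberg method, lay under 0.05. Of all genes 8550 were called (43.2%), 3768 higher (19.1%) and 4782 lower (24.2%), and the median difference was -0.054. For 10657 genes (53.9%) the arrays of both lines did not overlap. A called share near these percentages is therefore no more than the background of the contrast. Differences of at least 1 were called for 1401 genes in the higher and 1342 in the lower direction, and of at least 4 for 201 and 61. In 95.6% of the former and 91.7% of the latter the mean of untreated SKR6 lay nearer to SKR6CA than to SKR6LR. An own-control difference is the SKR6LR change from SKR6 minus the SKR6CA change from SKR6-Vector. For genes called neither way, its shifts and changes of direction are mostly not listed. For other named genes it is given where it changes a call or a direction or moves a value by more than 2 times. The same holds for the mean of all probe sets of a gene, for values without probe sets whose name marks possible matches to several transcripts (multi-transcript probe sets) and, where a call or direction changes, for cyclic loess scaling. Values with 1 array left out are given where they change a call or move a called value by over 1.5 times.

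The SKR6LR cultures varied more than the SKR6CA cultures, with a replicate SD of 0.209 against 0.107, and the correlation between arrays of the 2 lines was 0.922 to 0.933 against at least 0.9906 within either line. The 3′ minus 5′ signal of the GAPDH control, which grows as RNA degrades, reached 0.513 on the array of SKR6LR replicate 3 and was at most 0.229 on the 5 other arrays. SKR6LR replicate 1 stood apart in named gene groups. It was the lowest of the SKR6LR arrays for 35 of 36 interferon-stimulated genes, 29 of 39 NF-kB effector targets and 20 of 24 antigen presentation genes, and the highest for all 38 proliferation genes measured. Over all genes it was lowest in 37.5% and highest in 33.6%. Replicate 2 was the reverse, highest for 27 of the 39 NF-kB targets and lowest for 36 of the 38 proliferation genes. In replicates 1, 2 and 3 the median deviation from the SKR6LR mean was -0.80, 0.43 and 0.35 for interferon-stimulated genes and 0.35, -0.40 and 0.05 for proliferation genes. In SKR6CA no such median was larger than 0.05 in size. The labels name no batch, the numbers of replicates are not tied across lines, and what set these cultures apart was not tested.

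**Figure D1:**
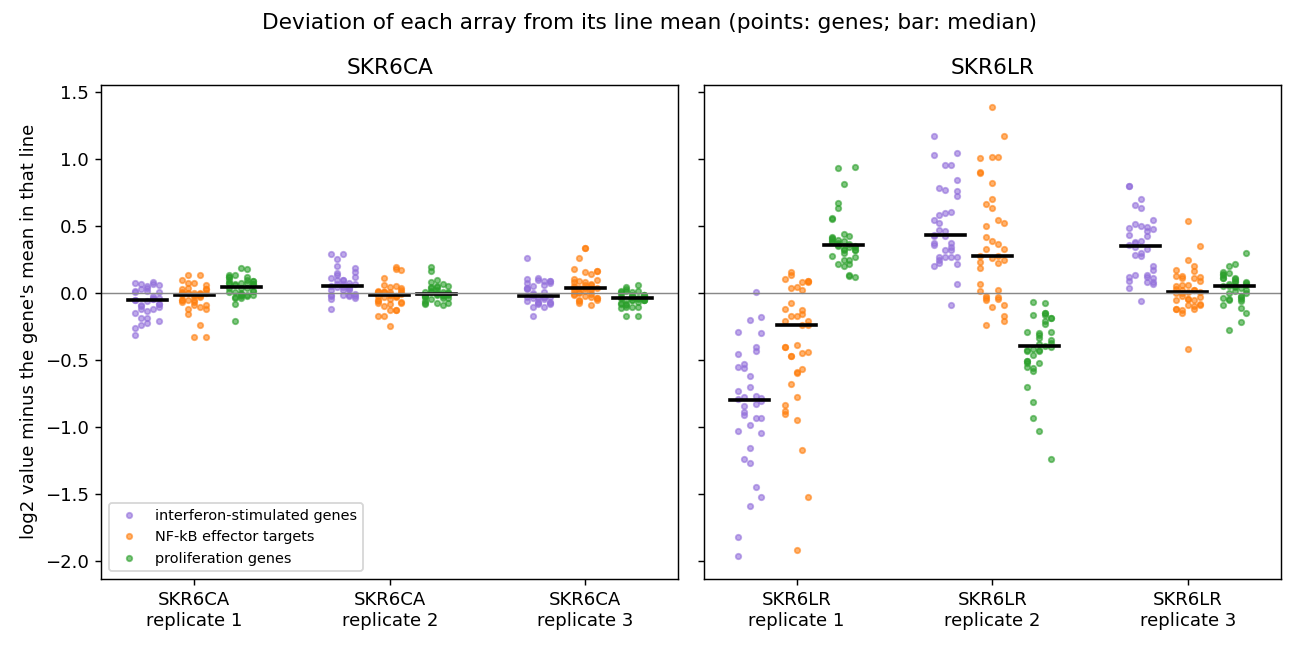
Deviation of each array's log2 value from the mean of its line, for 36 interferon-stimulated genes, 39 NF-kB effector targets and 38 proliferation genes (points) with the median (bar), SKR6CA on the left and SKR6LR on the right. In SKR6LR the interferon genes of replicate 1 lie mostly below 0 (median -0.80) and its proliferation genes above 0 (median 0.35), while the SKR6CA medians stay within 0.05 of 0.

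The epithelial markers KRT8 and EPCAM were high in both lines. The epithelial keratin KRT8 read 13.96, 13.91 and 13.87 in SKR6CA and 14.21, 14.11 and 13.50 in SKR6LR, the adhesion gene EPCAM 13.27, 13.38 and 13.29 in SKR6CA and 13.73, 13.50 and 13.52 in SKR6LR. ERBB2 was high in both lines and is described below. The E-cadherin gene CDH1, which SKBR-3 is known to lack, stayed between 4.17 and 4.39 on all 6 arrays. Markers of other cells were mostly low. Of 9 blood cell markers 2 were higher in SKR6LR (CD14 by 1.59 and CSF1R by 1.49) and 0 lower, and the summed signal was 9.28 to 9.43 in SKR6LR and 8.49 to 8.61 in SKR6CA (log2 of the sum). The leukocyte gene PTPRC and the T cell genes CD3D and CD3E were not called. Of 10 fibroblast markers 3 were higher (COL3A1 by 4.87, POSTN by 0.48, FAP by 0.42) and 1 lower (PDGFRA, -0.24), with sums of 9.98 to 10.31 and 8.71 to 8.79, and COL1A2, DCN and LUM were not called. Of 10 endothelial markers 2 were higher (VWF by 0.86, CDH5 by 0.75) and 2 lower (ESAM, -1.38, and TEK, -0.42), with sums of 9.60 to 10.05 and 9.55 to 9.58, and of 6 melanocyte markers MITF was lower (-1.29), with sums of 8.44 to 8.47 and 8.76 to 8.84. Their part in the results was not tested. In bulk RNA, fewer cells of a type and less RNA per cell cannot be told apart. The blood cell counts were 4 higher and 0 lower with cyclic loess, array weights or all 12 arrays in the model. Without SKR6CA replicate 2 or 3 the fibroblast counts were 2 higher and 0 lower, without SKR6LR replicate 3 or any SKR6CA array the endothelial counts were 1 and 2, and without SKR6CA replicate 3 the melanocyte counts were 0 and 2. Own controls made the difference -0.27 for PDGFRA (not called), 3.71 for CDH5 and 0.41 for MITF. Averaging over all probe sets gave 2.29 for COL3A1, 0.15 for POSTN (not called), -0.05 for PDGFRA (not called), 0.38 for VWF and -0.06 for TEK (not called). Without multi-transcript probe sets the difference was 0.55 for COL3A1 and -0.09 for POSTN (not called). Cyclic loess gave -0.20 for PDGFRA (not called). If 1 array was omitted, EPCAM (0.20 to 0.30 without SKR6LR replicate 1 or 3 or any SKR6CA array), FAP (0.40 without SKR6CA replicate 2 or 3), PDGFRA (-0.27 to -0.19 without SKR6LR replicate 1 or 3 or any SKR6CA array) and CDH5 (0.71 to 0.79 without SKR6LR replicate 3 or any SKR6CA array) lost their calls.

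Transcripts of the NF-kB subunits differed between the lines in 2 of 5 cases, in opposite directions. The RELA transcript, whose protein the virus supplies in active form to SKR6CA, read 9.35, 9.34 and 9.33 in SKR6CA and 9.31, 9.77 and 9.54 in SKR6LR. The ranges overlap, and the difference was 0.19 (SE 0.115, adjusted p = 0.229). On this probe set the SKR6CA mean (9.34) was not above that of SKR6-Vector (9.40), and SKR6 stood at 9.16. RELB, the partner of NFKB2 in the alternative pathway, read 7.23, 7.11 and 7.38 in SKR6CA and 8.03, 8.46 and 8.07 in SKR6LR. Every SKR6LR array lay above every SKR6CA array, by 0.94 (SE 0.131, adjusted p = 0.000557), and SKR6 and SKR6-Vector were lower still at 6.39 and 6.51. REL, a subunit best known from lymphocytes, went the other way, with 9.68, 9.59 and 9.91 in SKR6CA and 8.64, 9.16 and 8.81 in SKR6LR. No array overlapped, and the difference was -0.86 (SE 0.145, adjusted p = 0.00161). NFKB1 (0.08, adjusted p = 0.642) and NFKB2 (0.20, adjusted p = 0.636) were not called. Replicate 1 was the lowest SKR6LR array for all 5 subunits. Without it, 2 subunits were higher and 1 lower. Whether the RELA probe sets read the viral transcript is not known. The own-control difference was 0.43 for RELA (called). When 1 array was left out, RELA (0.31 without SKR6LR replicate 1) was called.

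The genes that restrain NF-kB were divided, with counts that moved with the choice of probe set. Of 14 measured brakes 4 were higher, 3 lower and 7 not called, with a median of -0.05. TNIP2, which binds and limits the IKK complex, read 8.90, 8.87 and 8.87 in SKR6CA and 9.97, 10.51 and 10.06 in SKR6LR, a difference of 1.30 (SE 0.138, adjusted p = 0.00012). NFKBIZ, a nuclear IkB protein that itself supports some NF-kB targets, was higher by 0.96 (SE 0.239, adjusted p = 0.0122). The ubiquitin ligase ITCH (0.56) and the deubiquitinase OTUD7B (0.28) completed the higher group. The deubiquitinase CYLD, a tumour suppressor that strips activating chains from NF-kB signalling proteins, read 8.13, 8.39 and 8.40 in SKR6CA and 6.86, 7.76 and 7.47 in SKR6LR, a difference of -0.94 (SE 0.21, adjusted p = 0.00695). RNF11 (-0.64) and the IkB protein NFKBIE (-0.49) were also lower. Both of the best known NF-kB-induced brakes showed no called difference between the lines. TNFAIP3 (A20) read 10.63, 10.66 and 10.77 in SKR6CA and 10.72, 12.45 and 11.50 in SKR6LR, against 7.98 in SKR6 and 7.85 in SKR6-Vector. Every array of both lines stood above the means of both controls, and SKR6LR replicate 1 lay among the SKR6CA arrays with replicates 2 and 3 above them, a difference of 0.87 (SE 0.366, adjusted p = 0.0957). NFKBIA (IkB alpha) read 12.62, 12.55 and 12.47 in SKR6CA and 12.12, 13.09 and 12.57 in SKR6LR, with SKR6LR arrays on either side of SKR6CA, a difference of 0.05 (SE 0.214, adjusted p = 0.889). No call was made for NFKBIB, NFKBID, TNIP1, TNIP3 and TAX1BP1, with differences of -0.30 (NFKBIB) to 0.09 (TNIP3). The own-control difference of NFKBIZ was 2.90, with SKR6 at 7.96 and SKR6-Vector at 9.90. CYLD's other probe sets ran up to 0.33. Without SKR6LR replicate 2 the counts were 4 higher and 5 lower, and without SKR6LR replicate 3 or SKR6CA replicate 1 they were 2 and 3. With probe set means, 3 members were higher and 5 lower, and with multi-transcript probe sets dropped, 2 of 12 members were higher and 6 lower. Set against own controls, the difference was 0.79 for OTUD7B and -0.42 for NFKBIB (called). As a mean over probe sets the difference was 0.05 for ITCH (not called), -0.26 for CYLD (not called), -0.38 for NFKBIB (called), -1.58 for TNIP1 (called) and -0.21 for TAX1BP1 (called). Leaving out multi-transcript probe sets gave -0.17 for ITCH (not called), -0.44 for NFKBIB (called), -2.87 for TNIP1 (called) and -0.47 for TAX1BP1 (called). On 5 arrays, NFKBIZ (0.89 without SKR6LR replicate 3 or SKR6CA replicate 1) and OTUD7B (0.22 to 0.33 without SKR6LR replicate 1 or 3 or any SKR6CA array) lost their calls. TNFAIP3 (1.28 without SKR6LR replicate 1), NFKBIB (-0.40 without SKR6LR replicate 2) and TNIP1 (-0.52 without SKR6LR replicate 2) were called, again with 1 array left out.

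Upstream of IKK, 6 of 20 kinases and adaptors were higher, 2 lower and 12 not called (median 0.20). The adaptor TRAF5, which links TNF family receptors to NF-kB, had the largest difference of this group. It read 4.60, 4.54 and 4.38 in SKR6CA and 10.68, 10.20 and 10.56 in SKR6LR, a difference of 5.98 (SE 0.13, adjusted p = 1.85e-08). The controls stood with SKR6CA at 4.80 and 5.07, but the gene's other probe set differed by only 0.17. MAP3K14 (NIK), the kinase that starts the alternative pathway, read 6.57, 6.45 and 6.49 in SKR6CA and 7.22, 7.46 and 7.43 in SKR6LR, a difference of 0.87 (SE 0.0882, adjusted p = 9.26e-05). The kinase MAP3K7 (TAK1) was higher by 0.87, the ubiquitin ligases TRAF6 and TRAF3 by 0.68 and 0.39, and TAB3, a TAK1 partner, by 0.52. The other TAK1 partner TAB2 (-0.85, adjusted p = 5.66e-05) was lower. IKBKE, an IKK-related kinase, read 8.68, 8.54 and 8.72 in SKR6CA and 7.46, 7.92 and 7.68 in SKR6LR, a difference of -0.96 (SE 0.122, adjusted p = 0.000349), with the controls at 7.65 and 7.59 beside SKR6LR. The IKK core genes CHUK, IKBKB and IKBKG were not called, with differences of 0.15, -0.18 and 0.19. The test was not passed by TBK1, TAB1, TRAF1, RIPK2, TRADD, MYD88, IRAK1, IRAK2 and BIRC2, with differences of -0.30 (TBK1) to 0.65 (IRAK2). Without SKR6LR replicate 1 the list held 10 higher genes. With cyclic loess, 10 members were higher and 2 lower, and with array weights, 10 members were higher and 3 lower. Relative to own controls the difference was 1.07 for TAB3, 0.27 for IKBKG (called) and -0.41 for TBK1 (called). Restriction to the other probe sets, with no multi-transcript mark, gave -0.24 for TAB2 (not called). Cyclic loess gave 0.24 for CHUK (called), 0.29 for IKBKG (called), 0.28 for TRAF1 (called) and 0.29 for IRAK1 (called). After removal of 1 array, TAB3 (0.33 to 0.54 without SKR6LR replicate 2 or 3 or any SKR6CA array) lost its call. IKBKB (-0.27 without SKR6LR replicate 3), IKBKG (0.26 without SKR6LR replicate 1), TBK1 (-0.37 without SKR6LR replicate 2), TRAF1 (0.30 without SKR6CA replicate 3), RIPK2 (0.54 without SKR6LR replicate 1), IRAK1 (0.26 without SKR6LR replicate 1) and IRAK2 (1.08 without SKR6LR replicate 1) were called, again with 1 array left out.

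Of 20 receptors and ligands that feed NF-kB 5 were higher, among them 4 interleukin-1 genes, and 4 lower (median 0.04). Their called share of 45.0% was near the 43.2% of all genes. The cytokine IL1B read 5.68, 5.45 and 5.62 in SKR6CA and 8.51, 9.60 and 8.76 in SKR6LR. All SKR6LR arrays were above all others, with the controls at 5.51 and 5.64, and the difference was 3.37 (SE 0.249, adjusted p = 1.51e-05). IL1A was higher by 2.67 (SE 0.341, adjusted p = 0.000348). The receptor chains IL1R1 (2.19, adjusted p = 4.13e-06) and IL1RAP (1.21, adjusted p = 0.00337) were higher as well. TNFRSF1B, the second TNF receptor, read 5.13, 4.94 and 5.23 in SKR6CA and 6.98, 9.44 and 8.28 in SKR6LR, a difference of 3.14 (SE 0.516, adjusted p = 0.00142). SKR6LR replicates 1 and 2 were far apart for it, yet neither reached down to SKR6CA. The main TNF receptor TNFRSF1A was not called (-0.22, adjusted p = 0.0803). TLR5, the flagellin receptor (-1.13), the lymphotoxin receptor LTBR (-0.58), TNFRSF11A (RANK, -0.55) and TLR2 (-0.36) were lower. TNF itself read 8.94, 9.07 and 9.05 in SKR6CA and 8.73, 10.07 and 9.54 in SKR6LR, against 6.22 in SKR6 and 6.42 in SKR6-Vector. Both lines stood above the means of both controls, and SKR6LR replicate 1 was below and replicates 2 and 3 above SKR6CA, a difference of 0.43 (SE 0.29, adjusted p = 0.288). Below the threshold were LTA, LTB, TNFSF10, TNFSF13B, CD40, TNFRSF12A, TLR3, TLR4 and IL17RA, with differences of -0.23 (CD40) to 0.81 (LTA). Without SKR6LR replicate 1 the list held 9 higher and 5 lower genes, and without SKR6CA replicate 2 or 3 it held 5 and 2. With all 12 arrays in the model, 8 members were higher and 5 lower, and with array weights, 9 members were higher and 6 lower. Own-control differences were -0.31 for TNFRSF1A (called), -0.43 for TLR5 (not called), -0.18 for TNFRSF11A (not called) and 0.37 for TNFRSF12A (called). Probe set means gave 1.26 for IL1A, -0.21 for LTBR (not called), -0.33 for TNFRSF11A (not called), 0.72 for TNFSF13B (called), -0.51 for CD40 (called) and 0.28 for TLR3 (called). When multi-transcript probe sets were left out, the difference was -0.14 for IL1A (not called) and -0.32 for LTB (called). Cyclic loess gave -0.28 for TLR2 (not called). With 1 array left out, TNFRSF11A (-0.49 to -0.48 without SKR6CA replicate 2 or 3) and TLR2 (-0.36 to -0.26 without SKR6LR replicate 3 or SKR6CA replicate 2 or 3) lost their calls. TNFRSF1A (-0.30 without SKR6LR replicate 1), TNF (0.79 without SKR6LR replicate 1), LTA (1.13 without SKR6LR replicate 1), TNFSF10 (1.03 without SKR6LR replicate 1), TNFSF13B (0.51 without SKR6LR replicate 1) and CD40 (-0.38 without SKR6LR replicate 2) were called, again with 1 array left out.

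NF-kB effector targets differed in both directions. Of 39 measured, 12 were higher (30.8%), 10 lower (25.6%) and 17 not called, with a median of 0.22, beside 19.1% and 24.2% of all genes. Without SKR6LR replicate 1 the counts were 19 higher and 10 lower, and with own-control differences 15 and 4. Without SKR6LR replicate 2 they were 12 and 11, and the median was -0.02. With multi-transcript probe sets dropped, 7 of 26 members were higher and 6 lower (median -0.05). The promoters of 3 genes from the rule below are shown because they hold a match to the kappa B consensus and belong to genes that differed in opposite directions. They are the 150 bases before the start site, 5′ to 3′ on the gene's strand, from RefSeq on GRCh38.p14, with the match in capitals: LAMB3 (minus strand) at chr1:209652426-209652575, SELE (minus strand) at chr1:169734080-169734229 and CCL20 (plus strand) at chr2:227813692-227813841.
LAMB3: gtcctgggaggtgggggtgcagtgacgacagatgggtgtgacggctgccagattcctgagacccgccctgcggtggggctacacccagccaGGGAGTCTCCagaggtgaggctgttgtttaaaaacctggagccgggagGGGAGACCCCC
SELE: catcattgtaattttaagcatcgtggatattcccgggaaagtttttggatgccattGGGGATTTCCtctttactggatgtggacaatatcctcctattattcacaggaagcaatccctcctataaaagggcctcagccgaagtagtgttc
CCL20: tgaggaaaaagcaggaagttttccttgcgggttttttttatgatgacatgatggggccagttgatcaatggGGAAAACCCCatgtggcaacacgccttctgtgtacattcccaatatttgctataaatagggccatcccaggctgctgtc
Counted from the start site, the LAMB3 matches begin at -59, -11 and -10, the last 2 overlapping, the SELE match at -94 and the CCL20 match at -79. The kappa B consensus, searched on both strands from 250 bases before to 50 after the start, occurred in 5.72% of all 27305 promoters, in 6.47% of the 15384 promoters of genes tested, in 41.4% (12 of 29) of effector targets with a promoter entry and in 40.9% (9 of 22) of chemokines. It occurred in 6.68% of 1093 promoters of genes higher in SKR6LR by at least 1 and in 6.09% of 1084 lower by at least 1. The rule took, from these targets, chemokines and NF-kB ligands and receptors, the 3 called members with the largest difference in each direction that had a promoter entry. CCL5, with the larger difference of 7.09, had no entry and was left out. TNFAIP8, IL1B and KYNU, also taken by the rule, held no match in their windows.

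The higher effector targets included genes of matrix, prostaglandin synthesis and survival. TNFAIP8, an inhibitor of cell death induced by TNF, read 6.78, 7.28 and 7.27 in SKR6CA and 10.82, 10.56 and 10.82 in SKR6LR, a difference of 3.63 (SE 0.149, adjusted p = 5.31e-07). LAMB3, a laminin chain, read 6.73, 6.47 and 6.59 in SKR6CA and 8.76, 10.94 and 10.09 in SKR6LR, a difference of 3.34 (SE 0.461, adjusted p = 0.00054). PTGS2, the inducible cyclooxygenase, stood at 3.70, 3.70 and 3.69 in SKR6CA and rose to 6.56, 7.20 and 7.14 in SKR6LR, a difference of 3.27 (SE 0.159, adjusted p = 1.36e-06). In each of these genes all SKR6LR arrays lay above SKR6CA and both controls. The urokinase receptor PLAUR (2.34), the peptide transporter TAP1 (2.13), the transcription factors MYC (1.56) and CEBPD (1.30), TNFAIP2 (1.07) and GCH1 (1.03), the first enzyme of tetrahydrobiopterin synthesis, were higher by more than 1, and the pentraxin PTX3 by 0.35. For MYC the arrays read 12.26, 12.24 and 12.30 in SKR6CA and 13.58, 14.04 and 13.84 in SKR6LR, with the controls at 12.09 and 12.09, level with SKR6CA. Own controls gave 0.51 for GCH1, the mean of all probe sets gave 0.76 for TNFAIP2 (not called) and probe sets without multi-transcript matches gave 1.03 for PLAUR. If 1 array was omitted, TNFAIP2 (1.03 to 1.11 without SKR6LR replicate 3 or any SKR6CA array) and PTX3 (0.25 to 0.40 without SKR6LR replicate 2 or 3 or any SKR6CA array) lost their calls, and TNFAIP2 (0.66 without SKR6LR replicate 2) moved by over 1.5 times.

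Other targets were lower in SKR6LR than with active p65. KYNU, an enzyme of tryptophan breakdown, read 10.85, 10.95 and 10.92 in SKR6CA and 5.71, 7.36 and 6.90 in SKR6LR, a difference of -4.25 (SE 0.358, adjusted p = 3.2e-05). The controls, at 10.93 and 10.25, were near SKR6CA. The endothelial adhesion gene SELE, by contrast, was high in SKR6CA over both controls (3.82 and 5.66). It read 6.34, 6.66 and 7.00 in SKR6CA and 3.63, 4.85 and 4.17 in SKR6LR, a difference of -2.45 (SE 0.295, adjusted p = 0.00025), and its own-control difference was -0.62 (adjusted p = 0.199). BCL2A1, an anti-apoptotic BCL2 relative, was likewise highest in SKR6CA, with 5.52, 5.36 and 5.94 in SKR6CA, 3.53, 5.14 and 3.71 in SKR6LR and the controls at 3.62 and 3.67. SKR6LR replicates 1 and 3 were at the control level and replicate 2 just below SKR6CA, a difference of -1.48 (SE 0.389, adjusted p = 0.0155). NINJ1 (-1.74), the ephrin EFNA1 (-0.83), VEGFA (-0.64), the gelatinase MMP9 (-0.48), GADD45B (-0.44), tissue factor F3 (-0.40) and IER3 (-0.35) were lower too. Own controls made the difference 0.10 for EFNA1 (not called), -0.43 for VEGFA (not called), 0.24 for GADD45B (not called), 0.63 for F3 and -0.23 for IER3 (not called). Over all probe sets the mean gave -0.40 for VEGFA (not called). Probe sets without multi-transcript matches gave -0.19 for GADD45B (not called). Cyclic loess gave -0.31 for F3 (not called). When 1 array was left out, BCL2A1 (-1.31 to -1.27 without SKR6LR replicate 3 or SKR6CA replicate 3), VEGFA (-0.65 to -0.63 without SKR6LR replicate 3 or any SKR6CA array) and F3 (-0.40 to -0.34 without SKR6CA replicate 2 or 3) lost their calls.

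Several classical targets stood above both controls in both lines with no called difference between them. ICAM1, an adhesion molecule, read 8.74, 8.57 and 8.63 in SKR6CA and 8.17, 9.97 and 9.07 in SKR6LR, against 7.21 and 7.33 in the controls, a difference of 0.42 (SE 0.378, adjusted p = 0.423). CFB, a complement factor, read 10.65, 10.73 and 10.78 in SKR6CA and 8.80, 12.10 and 11.25 in SKR6LR over controls at 6.26 and 5.87. SKR6LR replicate 1 was the lowest of the 6 arrays and replicates 2 and 3 the highest, a difference of 0.00 (SE 0.713, adjusted p = 0.998). The manganese superoxide dismutase SOD2 differed by -0.11 (adjusted p = 0.764), the interferon regulatory factor IRF1 by 0.49 (adjusted p = 0.113) and urokinase PLAU by 0.82 (adjusted p = 0.148). SKR6LR replicate 1 was the lowest SKR6LR array for each of these 5 genes and replicate 2 the highest, and a missed threshold does not show that the lines were alike. Also not called were VCAM1, C3, LCN2, NOS2, TNFAIP6, SDC4, CCND1, CD83, RIPK2 and TRAF1, with differences of -0.72 (LCN2) to 0.30 (TNFAIP6). The own-control difference was 1.38 for IRF1 (called) and 1.49 for PLAU (called). LCN2 turned to 1.47 against own controls, not called either way, with SKR6-Vector at 10.60. The mean of all probe sets gave 0.71 for IRF1 (called) and 0.27 for CD83 (called). Cyclic loess gave 0.31 for NOS2 (called), 0.36 for CD83 (called) and 0.28 for TRAF1 (called). On 5 arrays, ICAM1 (0.87 without SKR6LR replicate 1), CFB (0.96 without SKR6LR replicate 1), IRF1 (0.72 without SKR6LR replicate 1), PLAU (1.26 without SKR6LR replicate 1), TNFAIP6 (0.52 without SKR6LR replicate 1), CCND1 (-0.46 without SKR6LR replicate 2), CD83 (0.31 to 0.35 without SKR6LR replicate 2 or SKR6CA replicate 3), RIPK2 (0.54 without SKR6LR replicate 1) and TRAF1 (0.30 without SKR6CA replicate 3) were called.

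**Figure D2:**
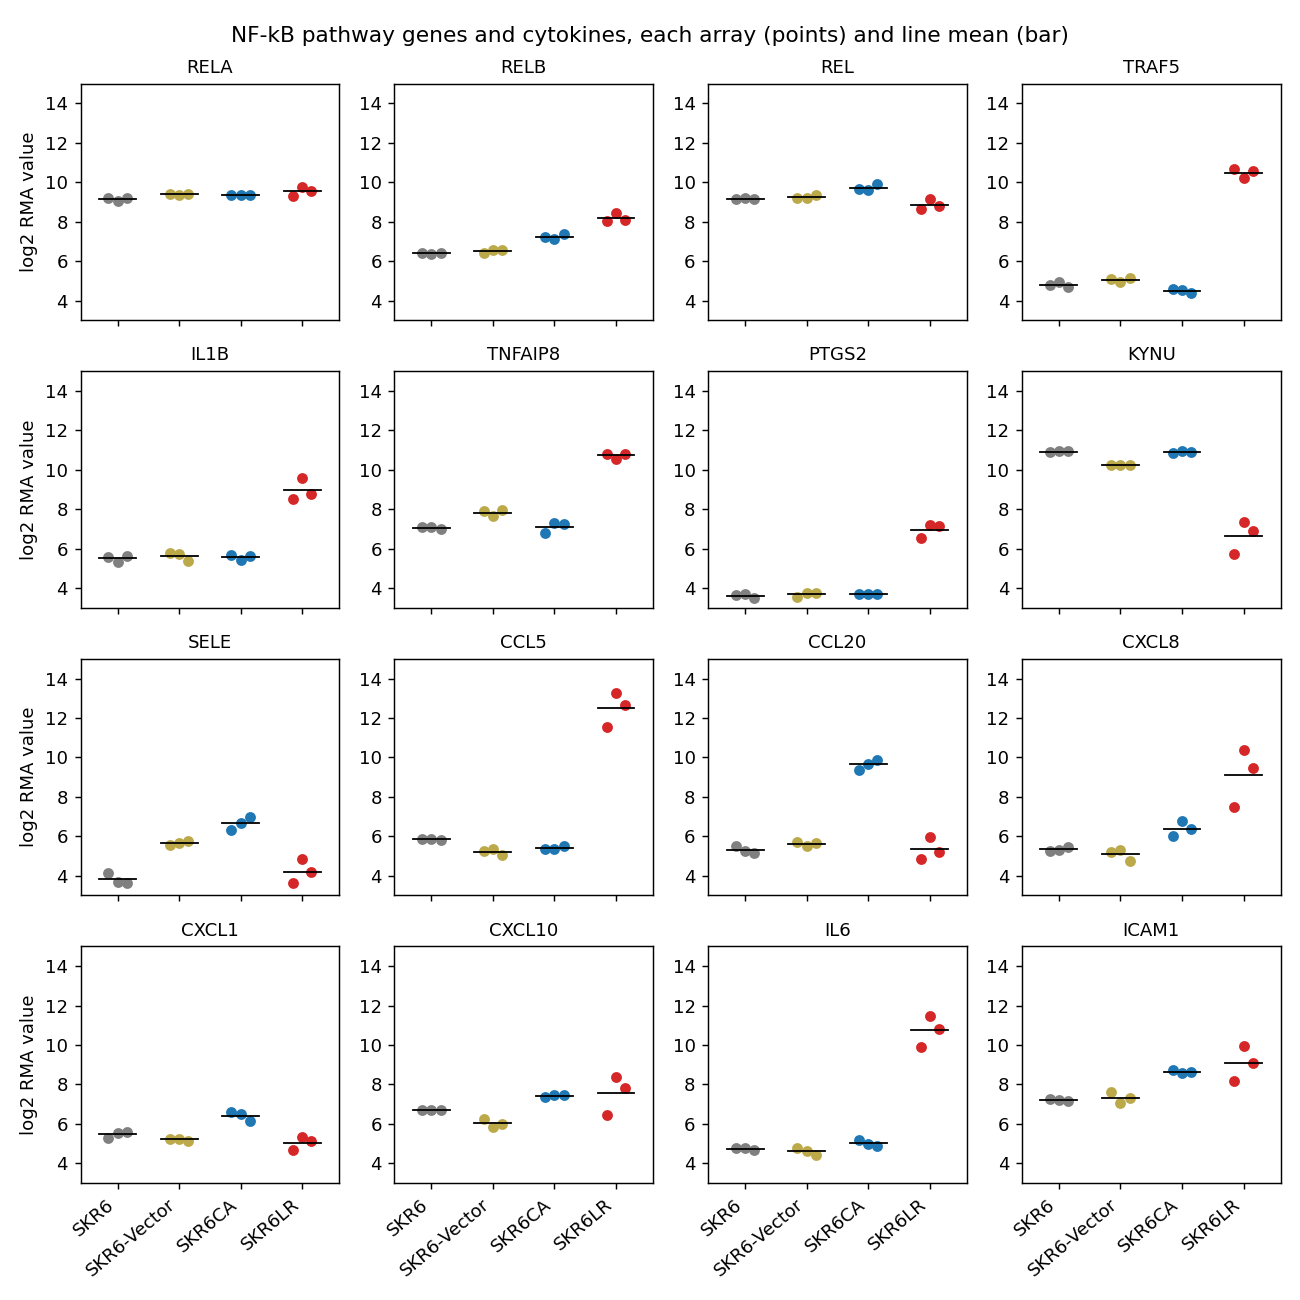
Log2 RMA values of 16 NF-kB pathway genes and cytokines on each of the 12 arrays (points, coloured by line) with the mean of each line (bar). TRAF5, IL1B, CCL5 and IL6 are high only on the SKR6LR arrays among those plotted, CCL20 only on the SKR6CA arrays, and ICAM1 is above the controls in both lines.

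Single chemokines stood far apart between the lines, while the called share of both chemokine lists (35.7%) lay below the 43.2% of all genes. Many members had low values, however. Among genes with a mean of at least 6 in either line, 3 of 5 CC chemokines were higher and 1 lower (median 1.7). Of 7 CXC and CX3C chemokines there, 4 were higher and 1 lower (median 0.92), and of all 12381 such genes 7841 were called. Among CC chemokines 4 of 14 were higher in SKR6LR and 1 lower (median -0.01), and among CXC and CX3C chemokines 4 of 14 were higher and 1 lower (median 0.12). CCL5 (RANTES), which attracts T cells and monocytes, read 5.34, 5.34 and 5.53 in SKR6CA and 11.53, 13.26 and 12.68 in SKR6LR. The SKR6CA arrays were at the level of the controls (5.84 and 5.23), and the difference was 7.09 (SE 0.372, adjusted p = 2.1e-06). CCL20, which attracts cells bearing CCR6, was the mirror image. It read 9.38, 9.67 and 9.88 in SKR6CA and 4.83, 5.95 and 5.22 in SKR6LR, whose arrays lay around the controls at 5.33 and 5.63, and the difference was -4.31 (SE 0.265, adjusted p = 5.12e-06). CCL2, a monocyte attractant, was raised in both lines over the controls (7.38 and 8.23), with 10.30, 10.18 and 10.41 in SKR6CA and the higher 11.39, 13.07 and 12.53 in SKR6LR, a difference of 2.03 (SE 0.363, adjusted p = 0.0022). CCL28 (1.70) and CCL8 (0.77) were also higher. No call was made for CCL4, CCL7, CCL11, CCL17, CCL19, CCL21, CCL22, CCL26 and CCL27, with differences of -0.30 (CCL17) to 0.11 (CCL4). Without SKR6LR replicate 2 the CC counts were 4 higher and 2 lower, as with own controls, and without SKR6LR replicate 3 or SKR6CA replicate 3 they were 2 and 1. Set against own controls, the difference was -0.73 for CCL17 (called). After removal of 1 array, CCL28 (1.54 to 1.75 without SKR6LR replicate 3 or any SKR6CA array) and CCL8 (0.62 to 0.74 without SKR6LR replicate 3 or SKR6CA replicate 3) lost their calls, and CCL17 (-0.44 without SKR6LR replicate 2) was called.

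Of the CXC group, CXCL8 (interleukin-8), a neutrophil attractant, read 6.01, 6.80 and 6.36 in SKR6CA and 7.48, 10.36 and 9.47 in SKR6LR, a difference of 2.72 (SE 0.634, adjusted p = 0.0088). CXCL14 (2.86, adjusted p = 6.46e-08) was higher with tight replicates, and CXCL11 (2.42), an interferon-induced ligand of CXCR3, and CX3CL1 (0.92, adjusted p = 0.0476) were higher with wide ones. CXCL1, a further neutrophil attractant, was higher in SKR6CA, at 6.61, 6.50 and 6.17 against 4.69, 5.35 and 5.12, a difference of -1.37 (SE 0.181, adjusted p = 0.000414). CXCL10 read 7.35, 7.46 and 7.46 in SKR6CA and 6.47, 8.37 and 7.81 in SKR6LR, with SKR6LR replicate 1 below and replicates 2 and 3 above SKR6CA, a difference of 0.12 (SE 0.41, adjusted p = 0.843). The test was not passed by CXCL2, CXCL3, CXCL5, CXCL6, CXCL9, CXCL12, CXCL13 and CXCL16, with differences of -0.20 (CXCL9) to 0.68 (CXCL2). Without SKR6LR replicate 1 the CXC group held 7 higher and 2 lower genes. With multi-transcript probe sets dropped, 2 of 13 members were higher and 1 lower. Relative to own controls the difference was 0.73 for CX3CL1 (not called), the mean of all probe sets gave 0.88 for CX3CL1 (not called) and probe sets without multi-transcript matches gave 0.08 for CXCL14 (not called). With 1 array left out, CX3CL1 (0.55 to 0.96 without SKR6LR replicate 2 or 3 or any SKR6CA array) lost its call. CXCL10 (0.67 without SKR6LR replicate 1), CXCL2 (1.08 without SKR6LR replicate 1), CXCL9 (-0.34 without SKR6LR replicate 1) and CXCL16 (0.48 without SKR6LR replicate 1) were called, again with 1 array left out.

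Among interleukins and colony-stimulating factors 8 of 17 were higher and 3 lower, with a median of 0.28. Of the 12 members with a mean of at least 6 in either line, 4 were higher and 3 lower (median -0.11). IL6, an activator of STAT3, had the largest difference. It read 5.17, 5.00 and 4.88 in SKR6CA and 9.91, 11.49 and 10.83 in SKR6LR, a difference of 5.72 (SE 0.34, adjusted p = 4.19e-06), and the controls stood at 4.73 and 4.62. LIF, of the same cytokine family, read 6.35, 6.24 and 6.17 in SKR6CA and 9.01, 9.55 and 9.08 in SKR6LR, a difference of 2.96 (SE 0.143, adjusted p = 1.32e-06). The macrophage factor CSF1 was higher by 2.07, IL32 by 1.65 and IL24 by 0.88, and IL36G, IL7 and TSLP by 0.73, 0.50 and 0.40. IL12A, a subunit of interleukin-12 and interleukin-35, was lower, with a difference of -2.51 (SE 0.106, adjusted p = 6.21e-07). IL15 (-1.47), a growth factor of NK and T cells, and IL18 (-0.36) were lower. Own-control differences were -0.96 for IL12A, -0.36 for IL15 (not called) and 0.13 for IL18 (not called). Averaging over all probe sets gave 0.56 for CSF1. Cyclic loess gave -0.25 for IL18 (not called). If 1 array was omitted, IL32 (1.52 to 1.68 without SKR6LR replicate 3 or SKR6CA replicate 2 or 3), IL7 (0.48 without SKR6CA replicate 1) and IL18 (-0.40 to -0.25 without SKR6LR replicate 1 or 3 or any SKR6CA array) lost their calls.

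**Figure D3:**
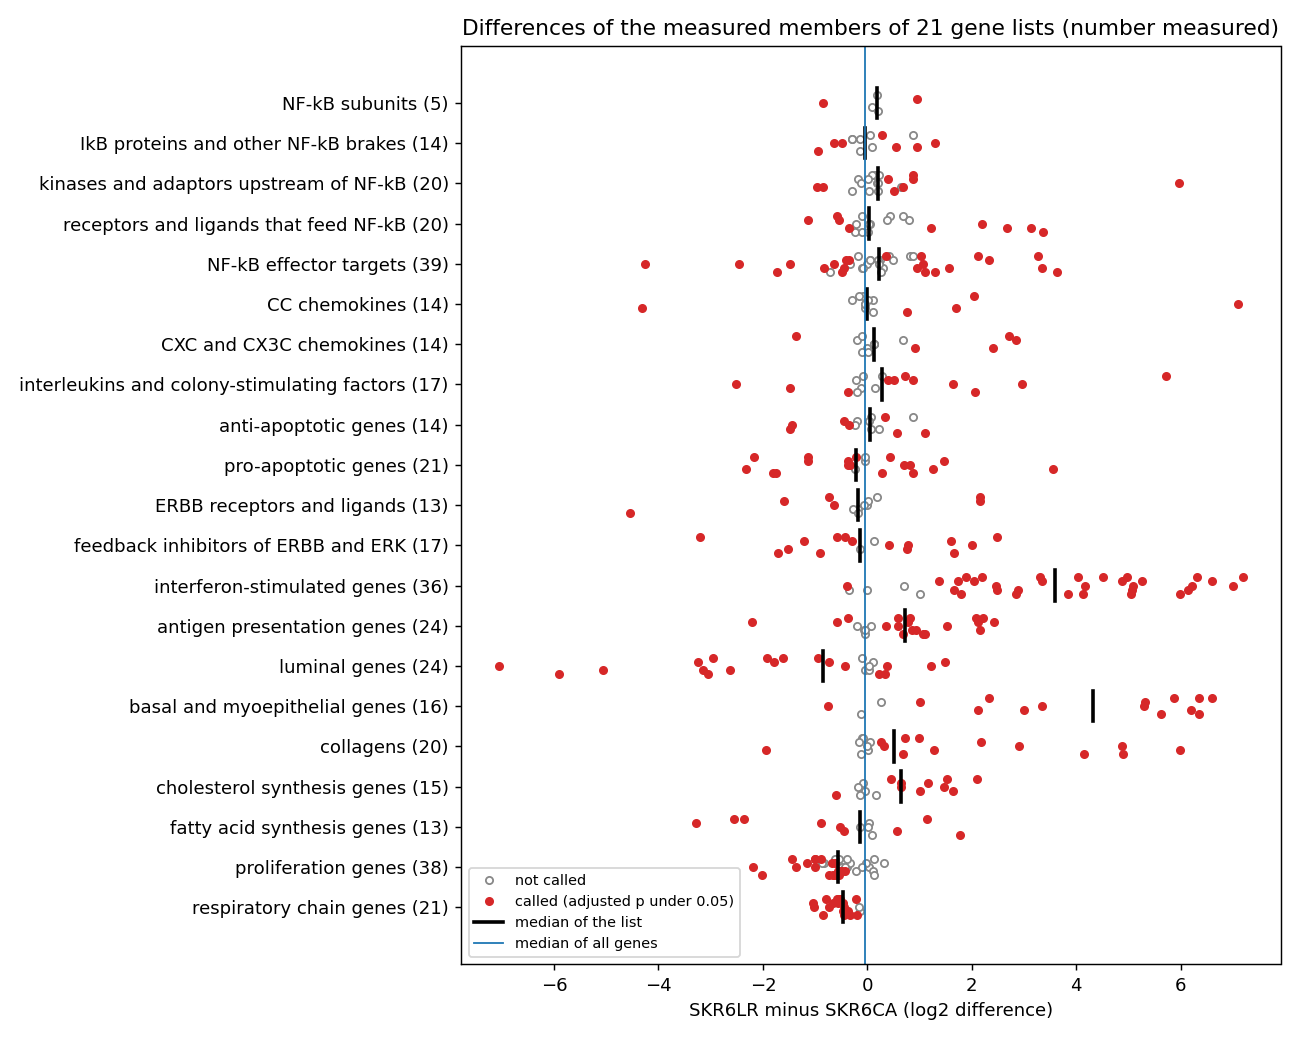
SKR6LR minus SKR6CA log2 differences of the measured members of 21 gene lists, filled where called and open where not, with the median of each list (black bar) and of all genes (blue line). Chemokines and NF-kB targets scatter to both sides of 0, while interferon-stimulated genes (median 3.59) and basal genes (median 4.32) lie mostly on the right and respiratory chain genes (median -0.47) on the left.

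Survival genes were divided, and several core death genes were lower in SKR6LR. Of 14 anti-apoptotic genes 3 were higher and 4 lower (median 0.05). The higher genes were CFLAR, the caspase-8 inhibitor, by 1.11 (SE 0.21, adjusted p = 0.00307), MCL1 by 0.57 (adjusted p = 0.000595) and XIAP by 0.33 (adjusted p = 0.015). BIRC5 (survivin), also a mitotic gene, was lower (-1.44), beside BCL2A1, GADD45B and IER3 given above. BCL2 and BCL2L1 (BCL-xL) were not called, at 0.08 and -0.19. Below the threshold were BCL2L2, BIRC2, BIRC7 and TRAF1, with differences of -0.24 (BCL2L2) to 0.22 (TRAF1). With own controls the counts were 3 higher and 2 lower. With array weights, 5 members were higher and 4 lower. Without multi-transcript probe sets the difference was -0.02 for CFLAR (not called) and cyclic loess gave 0.28 for TRAF1 (called). When 1 array was left out, BCL2L2 (-0.35 without SKR6LR replicate 2) and TRAF1 (0.30 without SKR6CA replicate 3) were called.

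Of 21 pro-apoptotic genes 8 were higher and 10 lower (median -0.21). PMAIP1 (NOXA), which neutralises MCL1, read 7.22, 7.46 and 7.64 in SKR6CA and 10.49, 11.60 and 10.88 in SKR6LR, a difference of 3.55 (SE 0.257, adjusted p = 1.36e-05). The death receptor FAS read 4.26, 4.35 and 4.49 in SKR6CA and 5.07, 6.79 and 5.63 in SKR6LR, a difference of 1.46 (SE 0.373, adjusted p = 0.0137), and TNFRSF10A, a TRAIL receptor, was higher by 0.71. CASP10 (1.26), HRK (0.88), BOK (0.82), BAX (0.43) and FADD (0.28) made up the rest. BID, which couples death receptors to mitochondria, read 10.01, 10.05 and 10.03 in SKR6CA and 7.42, 7.98 and 7.73 in SKR6LR, a difference of -2.32 (SE 0.133, adjusted p = 3.46e-06). CASP6 (-2.17), BAD (-1.81), APAF1, the scaffold of the apoptosome (-1.74), BAK1 (-1.14) and BIK (-1.14) were lower by more than 1. BCL2L11 (BIM, -0.37), CASP9 (-0.37), BMF (-0.33) and DIABLO (-0.21) were lower by less. Also not called were CASP8, TNFRSF10B and TP53AIP1, with differences of -0.24 (TNFRSF10B) to -0.04 (CASP8). With multi-transcript probe sets dropped, 4 of 16 members were higher and 6 lower. Own controls gave 0.26 for TNFRSF10A (not called), -0.75 for BCL2L11, -0.10 for CASP9 (not called), 0.97 for BMF, 0.63 for CASP8 (called) and -1.32 for TNFRSF10B (called). As a mean over probe sets the difference was 0.60 for FAS, 0.33 for CASP10, 0.33 for BOK, 0.33 for BAX (not called), -0.83 for APAF1, -0.08 for BCL2L11 (not called) and -0.22 for TP53AIP1 (called). Leaving out multi-transcript probe sets gave -0.05 for FAS (not called), -0.16 for BOK (not called) and -0.04 for CASP9 (not called). Cyclic loess gave -0.22 for BMF (not called) and -0.12 for DIABLO (not called). On 5 arrays, FAS (1.41 without SKR6CA replicate 1), BAX (0.33 to 0.45 without SKR6LR replicate 3 or SKR6CA replicate 2 or 3), FADD (0.27 to 0.28 without SKR6LR replicate 3 or SKR6CA replicate 2 or 3), BMF (-0.31 without SKR6CA replicate 2) and DIABLO (-0.22 to -0.18 without SKR6LR replicate 1 or 3 or any SKR6CA array) lost their calls.

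The targets of lapatinib differed in opposite directions. ERBB2 read 14.06, 14.00 and 14.06 in SKR6CA and 12.55, 12.39 and 12.40 in SKR6LR. All SKR6LR arrays were lower than those of the 3 other lines (SKR6 13.83, SKR6-Vector 13.92), and the difference was -1.59 (SE 0.0765, adjusted p = 1.26e-06). EGFR read 11.13, 11.08 and 11.09 in SKR6CA and 13.21, 13.25 and 13.31 in SKR6LR, a difference of 2.16 (SE 0.0698, adjusted p = 1.47e-07). SKR6 stood at 8.58 and SKR6-Vector at 10.64, and the own-control difference was 4.22. ERBB3, the kinase-impaired partner of HER2, was lower, with a difference of -0.65 (SE 0.0947, adjusted p = 0.000745), and ERBB4 was not called (-0.18). Of 13 receptors and ligands 2 were higher and 4 lower (median -0.18), with 46.2% called beside 43.2% of all genes. Among the ligands, EGF read 8.86, 8.97 and 8.97 in SKR6CA and fell to 4.25, 4.51 and 4.39 in SKR6LR, a difference of -4.55 (SE 0.0898, adjusted p = 1.2e-08), while HBEGF, which also binds EGFR, read 5.98, 5.96 and 6.06 in SKR6CA and 8.40, 8.05 and 8.04 in SKR6LR, a difference of 2.16 (SE 0.11, adjusted p = 1.78e-06). The neuregulin NRG2 was lower (-0.73). No call was made for TGFA, EREG, BTC, NRG1, NRG3 and NRG4, with differences of -0.27 (BTC) to 0.19 (TGFA). The lowest of the 9 EGFR probe sets (-0.17) and of the 4 HBEGF probe sets (-0.17) differed in the other direction. With multi-transcript probe sets dropped, 3 of 12 members were higher and 2 lower. Own controls made the difference 1.22 for BTC (called). Probe set means gave 0.95 for EGFR, 0.92 for HBEGF and 0.63 for TGFA (called). Restriction to the other probe sets, with no multi-transcript mark, gave -0.21 for NRG2 (not called) and 1.59 for TGFA (called). Cyclic loess gave 0.25 for TGFA (called). After removal of 1 array, TGFA (0.27 without SKR6CA replicate 1) was called.

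Of 17 feedback inhibitors of ERBB and ERK 7 were higher and 8 lower (median -0.14). ERRFI1 (MIG6), an inhibitor that binds the EGFR family kinases, read 10.06, 10.02 and 10.13 in SKR6CA and 12.12, 12.08 and 12.01 in SKR6LR, a difference of 2.00 (SE 0.0736, adjusted p = 2.88e-07). The ERK phosphatases DUSP5 (2.48) and DUSP6 (1.60) and PHLDA1 (1.66) were higher, while DUSP4 was lower (-1.70). LRIG1, a membrane protein that promotes loss of EGFR family receptors, read 8.84, 8.87 and 8.82 in SKR6CA and 5.88, 5.54 and 5.53 in SKR6LR, a difference of -3.20 (SE 0.105, adjusted p = 1.62e-07), although 1 of its 4 probe sets showed no difference. SPRY1 (-1.52), LRIG3 (-1.21) and SPRY2 (-0.91) were lower. Of 15 genes of the 17q12 region, ERBB2 among them, 7 were lower and 2 higher (median -0.26). GRB7 read 10.27, 10.20 and 10.20 in SKR6CA and 8.84, 9.34 and 8.45 in SKR6LR, a difference of -1.34 (SE 0.196, adjusted p = 0.000727). STARD3 (-0.84), MIEN1 (-0.72) and PGAP3 (-0.52) followed, while MED1 (-0.21) and CDK12 (-0.14, adjusted p = 0.153) showed small differences. IKZF3, a lymphocyte transcription factor of the same region, was higher by 2.80 and ZPBP2 by 0.28. The own-control counts of the 17q12 genes were 1 higher and 10 lower, and without SKR6CA replicate 1 or 2 the counts were 1 and 6. With all 12 arrays in the model, 2 members were higher and 11 lower. The own-control difference was -0.38 for SPRY2 (not called), -0.28 for CDK12 (called) and 0.18 for ZPBP2 (not called). Over all probe sets the mean gave -0.86 for LRIG1. When multi-transcript probe sets were left out, the difference was -0.21 for MED1 (not called). Cyclic loess gave -0.15 for MED1 (not called). With 1 array left out, PHLDA1 (1.57 to 1.73 without SKR6LR replicate 3 or any SKR6CA array), MED1 (-0.23 to -0.19 without SKR6LR replicate 1 or 3 or any SKR6CA array) and ZPBP2 (0.23 to 0.30 without SKR6CA replicate 1 or 2) lost their calls. PHLDA1 (1.09 without SKR6LR replicate 2) moved by over 1.5 times, again with 1 array left out.

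Interferon-stimulated genes, which type I and type III interferons induce, were higher in SKR6LR with few exceptions. Of 36 measured, 31 were higher (86.1%), 1 lower and 4 not called, with a median of 3.59. Without SKR6LR replicate 1, the array that was lowest for 35 of them, 33 were higher and 0 lower, and without SKR6LR replicate 3 or any SKR6CA array 31 were higher and 0 lower. IFI44L read 4.52, 4.89 and 5.10 in SKR6CA and 11.01, 12.58 and 12.52 in SKR6LR, a difference of 7.20 (SE 0.392, adjusted p = 2.52e-06). The ubiquitin-like ligase HERC5 read 3.90, 4.18 and 4.18 in SKR6CA and 10.10, 11.68 and 11.47 in SKR6LR, a difference of 7.00 (SE 0.368, adjusted p = 2.11e-06). MX1, a GTPase that blocks viral replication, read 6.20, 6.43 and 6.26 in SKR6CA and 12.01, 13.42 and 13.27 in SKR6LR, a difference of 6.61 (SE 0.331, adjusted p = 1.6e-06). In these 3 genes SKR6LR lay above all arrays of the 3 other lines, whose means were close together. CMPK2 (6.31), IFIT1 (6.22), IFIT2 (6.14), XAF1 (5.99), OAS2 (5.05) and ISG15 (4.17) followed. LGALS3BP (-0.38) was the lower one, and BST2 (0.71), GBP2 (1.00), ISG20 (-0.35) and EPSTI1 (0.00) were not called. Set against own controls, the difference was -1.02 for LGALS3BP, -1.80 for BST2 (called), 2.09 for GBP2 (called) and -1.10 for ISG20 (called). Cyclic loess gave -0.31 for LGALS3BP (not called) and 1.09 for GBP2 (called). If 1 array was omitted, LGALS3BP (-0.40 to -0.28 without SKR6LR replicate 1 or 3 or any SKR6CA array) lost its call, and BST2 (1.29 without SKR6LR replicate 1) and GBP2 (1.47 without SKR6LR replicate 1) were called.

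For some of these genes untreated SKR6 was itself above SKR6-Vector. IFI27 read 7.19, 7.74 and 7.42 in SKR6CA and 10.70, 11.85 and 11.92 in SKR6LR, but 10.25 in SKR6 and 6.22 in SKR6-Vector, and its own-control difference was 0.01. IFI6 (2.84, own-control -0.10), IFITM1 (2.89, 0.24), OAS1 (2.48, 0.51) and USP18 (1.36, 0.25) likewise lost their calls. Own-control differences gave 27 higher and 3 lower genes with a median of 2.56. Promoters of 2 members, chosen after their values were seen, are shown for the core of the interferon-stimulated response element, a pair of GAAA with any NN between. They had the largest differences among called members with this core in the 150 bases before the start. A match in them was therefore a condition of the choice and not a result. The stretches are the 150 bases before the start from RefSeq on GRCh38.p14, IFI44L (plus strand) at chr1:78620298-78620447 and HERC5 (plus strand) at chr4:88456969-88457118, with matches on either strand in capitals.
IFI44L: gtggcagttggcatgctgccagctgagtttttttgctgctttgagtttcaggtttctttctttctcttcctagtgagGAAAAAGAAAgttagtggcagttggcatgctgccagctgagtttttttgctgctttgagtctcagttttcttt
HERC5: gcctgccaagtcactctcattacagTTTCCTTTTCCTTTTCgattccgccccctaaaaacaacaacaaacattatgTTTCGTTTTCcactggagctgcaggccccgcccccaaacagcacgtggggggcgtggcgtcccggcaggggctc
The IFI44L match begins at -73 from the start, and those of HERC5, all on the opposite strand, begin at -125, -119 and -74, the former 2 overlapping. The core occurred in 72.4% (21 of 29) of promoters in the interferon list, in 3.65% of all 27305 promoters, in 2.94% of the 15384 promoters of genes tested, in 5.31% of genes higher by at least 1 and in 1.66% of genes lower by at least 1.

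Sensors, interferons and their signalling genes were also uneven. Of 26 measured, 12 were higher and 5 lower (median 0.19). RIGI, a cytoplasmic sensor of viral RNA, read 7.04, 7.21 and 7.41 in SKR6CA and 9.96, 11.40 and 11.39 in SKR6LR, a difference of 3.70 (SE 0.358, adjusted p = 7.09e-05), and its relatives IFIH1 (2.30) and DHX58 (1.37) were higher. IFNB1, the interferon beta gene, read 4.41, 4.50 and 4.68 in SKR6CA and 5.19, 6.15 and 6.14 in SKR6LR, a difference of 1.29 (SE 0.243, adjusted p = 0.00292), and IFNL1, an interferon lambda, 5.46, 5.40 and 5.21 in SKR6CA and 5.65, 7.53 and 6.85 in SKR6LR, a difference of 1.32 (SE 0.403, adjusted p = 0.0296). For IFNL1 the SKR6LR arrays were spread and replicate 1 was nearest to SKR6CA. IRF9 (1.81), IRF7 (1.62) and the receptor chain IFNGR1 (1.92) were higher. Both chains of the interferon alpha and beta receptor were lower, IFNAR1 with 8.61, 8.55 and 8.59 in SKR6CA and 7.40, 6.77 and 7.44 in SKR6LR, a difference of -1.38 (SE 0.168, adjusted p = 0.000266), and IFNAR2 (-0.66). STAT3 was lower (-0.77). The cGAMP receptor STING1 was not called (0.02, adjusted p = 0.954). SOCS3 was not called on the probe set used (0.13), while another of its 4 probe sets differed by 3.98. Relative to own controls the difference was -0.13 for STAT3 (not called). The mean of all probe sets gave 1.23 for SOCS3 (called). Probe sets without multi-transcript matches gave 3.98 for SOCS3 (called). Cyclic loess gave 0.24 for SOCS3 (called). When 1 array was left out, IFNL1 (1.23 to 1.37 without SKR6LR replicate 3 or any SKR6CA array) lost its call.

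Of 24 antigen presentation genes 16 were higher and 3 lower, with a median of 0.73. The class I genes HLA-C and HLA-B were higher by 2.43 and 2.07, and B2M, their common light chain, by 0.59. HLA genes share sequence, so their probe sets can read one another. The immunoproteasome subunit PSMB9 read 8.39, 8.51 and 8.57 in SKR6CA and 10.11, 11.10 and 10.90 in SKR6LR, a difference of 2.21 (SE 0.229, adjusted p = 0.000106). NLRC5, a transcription factor of class I genes, was higher by 2.16, the peptide transporter TAP2 by 1.53 and the peptidase ERAP1 by 1.11. SKR6CA stood between the controls and SKR6LR for PSMB9, whose controls were 6.59 and 7.72. The class II genes were apart from this, with HLA-DMA lower, with a difference of -2.20 (SE 0.228, adjusted p = 0.000106), CIITA not called (-0.05) and HLA-DRA higher by 0.82. ERAP2 (-0.36) and CALR (-0.57) were the other lower members. Without SKR6LR replicate 2 the counts were 16 higher and 5 lower, and without SKR6LR replicate 3 they were 13 and 2. When any SKR6CA array was left out, the higher genes numbered 11 or 12. With multi-transcript probe sets dropped, 10 of 18 members were higher and 2 lower. Own-control differences were -0.11 for ERAP2 (not called). Averaging over all probe sets gave 1.38 for B2M and 0.69 for TAP2. Without multi-transcript probe sets the difference was 3.01 for B2M. Cyclic loess gave -0.33 for ERAP2 (not called). On 5 arrays, HLA-DRA (0.71 to 0.85 without SKR6CA replicate 1 or 3) and ERAP2 (-0.38 to -0.28 without SKR6LR replicate 1 or 3 or SKR6CA replicate 2 or 3) lost their calls, and HLA-DRA (0.52 without SKR6LR replicate 2) moved by over 1.5 times.

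In breast lineage genes the lines stood far apart. Luminal genes are those of the secretory, hormone-responsive cells of the gland, and basal genes those of the contractile outer layer. Of 24 luminal genes 14 were lower and 5 higher (median -0.84), and of 16 basal genes 13 were higher and 1 lower (median 4.32). The secretory gene AGR2 read 13.33, 13.32 and 13.31 in SKR6CA and 6.65, 5.45 and 6.68 in SKR6LR, a difference of -7.06 (SE 0.297, adjusted p = 6.2e-07). MLPH read 12.38, 12.35 and 12.39 in SKR6CA and 6.54, 6.51 and 6.33 in SKR6LR, a difference of -5.91 (SE 0.0817, adjusted p = 2.23e-09). The luminal transcription factor FOXA1 read 10.19, 10.10 and 10.09 in SKR6CA and 6.94, 7.12 and 6.88 in SKR6LR, a difference of -3.14 (SE 0.0868, adjusted p = 6.33e-08). In these 3 genes SKR6LR was below all arrays of the other lines, which were close together. SCGB2A2 (mammaglobin, -5.05), MUC1 (-3.24), SPDEF (-3.06), PIP (-2.95) and XBP1 (-1.93) were lower. MUC1 was high in SKR6CA (11.73, 11.83 and 11.75) over the controls (9.32 and 9.65). GATA3, a luminal factor, was higher instead, at 11.83, 11.73 and 11.80 in SKR6CA and 12.73, 13.25 and 13.03 in SKR6LR, a difference of 1.22 (SE 0.126, adjusted p = 0.000107), as were STC2 (1.48), TFAP2A (0.37), TFAP2C (0.33) and KRT18 (0.23). ESR1 was not called (-0.10). Own controls gave 2.99 for GATA3, 0.17 for TFAP2C (not called), 0.53 for KRT18 and -0.22 for ESR1 (called). As a mean over probe sets the difference was -0.81 for XBP1 and 0.25 for TFAP2C (not called). Leaving out multi-transcript probe sets gave 3.06 for STC2. After removal of 1 array, KRT18 (0.22 to 0.24 without SKR6LR replicate 3 or any SKR6CA array) lost its call.

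Most basal genes were far higher in SKR6LR. The basal keratin KRT14 read 4.38, 4.73 and 4.76 in SKR6CA and 9.55, 10.38 and 9.88 in SKR6LR, a difference of 5.32 (SE 0.205, adjusted p = 3.73e-07). ITGA6, the laminin receptor chain of basal cells, read 4.13, 4.14 and 3.93 in SKR6CA and 10.55, 10.56 and 10.90 in SKR6LR, a difference of 6.60 (SE 0.116, adjusted p = 7.4e-09). ACTA2, smooth muscle actin, read 6.96, 6.98 and 6.73 in SKR6CA and 13.05, 13.40 and 13.27 in SKR6LR, a difference of 6.35 (SE 0.113, adjusted p = 7.82e-09). No array of either line overlapped in these genes. CAV1, the caveolae protein, read 7.80, 7.67 and 7.71 in SKR6CA and 13.92, 13.88 and 13.97 in SKR6LR, with SKR6 at 6.28 and SKR6-Vector at 11.10, and the difference of 6.19 was 11.02 against own controls. The oxytocin receptor OXTR (6.36), MYLK (5.87), CAV2 (5.62), TAGLN (5.31), KRT16 (3.00) and KRT5 (2.33) were higher, CNN1 and CDH3 not called. KRT15 was lower (-0.76) and turned to 0.92 against its own control, with SKR6-Vector at 10.76. The own-control counts of basal genes were 14 higher and 0 lower. Probe set means gave 3.01 for ACTA2 and 2.16 for MYLK and probe sets without multi-transcript matches gave 1.30 for TAGLN.

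**Figure D4:**
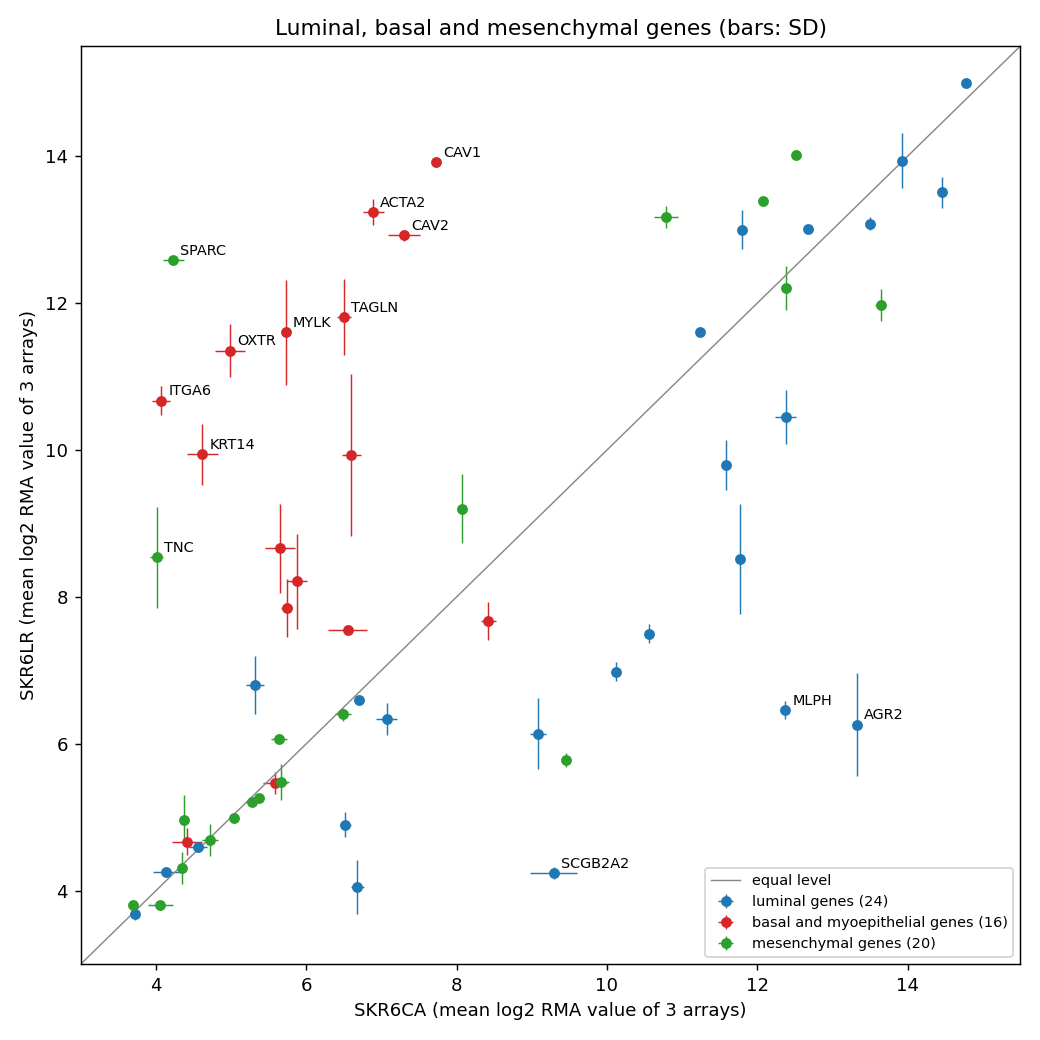
Mean log2 RMA value in SKR6LR against that in SKR6CA (n = 3 each, bars are SD) for 24 luminal, 16 basal and 20 mesenchymal genes, with the line of equal level and names for differences of at least 4. Basal genes such as KRT14, ITGA6 and ACTA2 lie far above the line and AGR2, MLPH and SCGB2A2 far below it. Of the mesenchymal genes 6 are higher by at least 1, SPARC and TNC among them, and 2 lower by at least 1.

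Mesenchymal genes were divided, with 8 of 20 higher and 2 lower (median -0.04, own controls 9 and 4, array weights 8 and 4). SPARC, a matrix glycoprotein, read 4.11, 4.38 and 4.20 in SKR6CA and 12.59, 12.56 and 12.58 in SKR6LR, a difference of 8.35 (SE 0.0876, adjusted p = 2.09e-09), and the matrix genes TNC and THBS1 were higher by 4.53 and 2.38. FN1 read 12.50, 12.53 and 12.49 in SKR6CA and 13.96, 14.00 and 14.10 in SKR6LR, a difference of 1.51 (SE 0.0719, adjusted p = 1.19e-06), but SKR6 stood at 9.32 and SKR6-Vector at 13.40. The regulators SNAI1 (0.43) and SNAI2 (0.59) were higher by less than 1, while TGFBI (-3.68) and S100A4 (-1.67) were lower. Of 20 epithelial junction genes 10 were higher and 6 lower (median 0.24). The tight junction gene CLDN1 was higher by 2.20, the scaffold TJP1 by 0.98, the epithelial factor GRHL2 by 1.26 and the desmosome gene DSP by 1.01. RAB25 read 10.47, 10.41 and 10.35 in SKR6CA and 6.67, 7.10 and 6.81 in SKR6LR, a difference of -3.55 (SE 0.114, adjusted p = 1.42e-07), and TJP3 (-2.23) and the splicing factor ESRP1 (-0.84) were also lower. The higher junction genes numbered 6 when any SKR6CA array was left out. Of 14 stem-cell-associated genes 6 were higher and 4 lower (own controls 7 and 2). CD44, a hyaluronan receptor, was lower in SKR6CA (4.62, 4.83 and 4.58) than in both controls (8.09 and 7.24) and read 9.25, 10.41 and 10.10 in SKR6LR, a difference of 5.25 (SE 0.263, adjusted p = 1.6e-06). NT5E (2.02) and PROM1 (1.24) were higher, while SOX9 (-2.34), ALDH1A3 (-0.89), ALDH1A1 (-0.37) and the ligand BMP4 (-0.47) were lower. Own controls made the difference 5.59 for FN1, 5.38 for CLDN1, 5.63 for NT5E, 0.40 for PROM1 (not called), -0.86 for SOX9 (not called), 0.45 for ALDH1A3, 2.30 for ALDH1A1 and -1.17 for BMP4. Over all probe sets the mean gave 1.96 for TNC and 2.22 for CD44. With 1 array left out, SNAI2 (0.57 to 0.59 without SKR6CA replicate 1 or 3) and ALDH1A1 (-0.41 to -0.25 without any SKR6LR array or SKR6CA replicate 1 or 2) lost their calls.

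Receptor tyrosine kinases other than the ERBB family and their ligands, often studied as bypass routes around HER2 inhibition, were higher in 11 of 27 cases and lower in 4 (median 0.35), or 10 and 2 without SKR6CA replicate 1 or with probe set means. Their called share was 55.6%, beside 43.2% of all genes. With multi-transcript probe sets dropped, 6 of 20 members were higher and 3 lower, and the median was -0.02. MET, the receptor for hepatocyte growth factor, read 10.48, 10.73 and 10.62 in SKR6CA and 13.71, 13.51 and 13.84 in SKR6LR, a difference of 3.08 (SE 0.108, adjusted p = 2.29e-07). MERTK, of the TAM family, read 4.80, 4.73 and 4.53 in SKR6CA and 8.19, 7.78 and 7.87 in SKR6LR, a difference of 3.26 (SE 0.125, adjusted p = 3.63e-07). The ligand PDGFA read 6.08, 6.22 and 6.21 in SKR6CA and 10.30, 10.17 and 10.17 in SKR6LR, a difference of 4.05 (SE 0.078, adjusted p = 1.08e-08). PDGFC (1.97), EPHA2 (1.91), FGFR2 (1.83), INSR (1.24) and IGF1R (0.80) were higher. KITLG (stem cell factor), the ligand of KIT, read 12.40, 12.52 and 12.51 in SKR6CA and 3.94, 4.77 and 5.05 in SKR6LR, a difference of -7.89 (SE 0.248, adjusted p = 1.32e-07). SKR6 (11.28) and SKR6-Vector (11.94) were high as well. TYRO3 (-0.63) and FGFR4 (-0.41) were also lower. Of 19 PI3K pathway genes 9 were higher and 6 lower (median 0.22). The adaptor IRS2 read 5.44, 5.35 and 5.64 in SKR6CA and 7.99, 8.85 and 8.21 in SKR6LR, a difference of 2.87 (SE 0.205, adjusted p = 1.23e-05), and the catalytic subunit PIK3CD was higher by 2.70, the regulatory subunit PIK3R1 by 1.77 and the transcription factor KLF6 by 1.86. AKT1 (-1.56), PIK3R3 (-1.56), PIK3IP1 (-1.20) and the FOXO target CCNG2 (-2.03) were lower. The own-control difference was 1.65 for IGF1R, -1.76 for FGFR4 and -0.23 for PIK3IP1 (not called). The mean of all probe sets gave 1.41 for MERTK, 0.70 for FGFR2, -3.13 for KITLG, -0.16 for FGFR4 (not called) and 1.30 for PIK3CD. Restriction to the other probe sets, with no multi-transcript mark, gave -0.14 for MERTK (not called) and -0.17 for FGFR2 (not called). If 1 array was omitted, FGFR4 (-0.39 without SKR6CA replicate 1) lost its call.

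Among 21 genes of drug transport and metabolism 6 were higher and 6 lower (median 0.17), with 57.1% called beside 43.2% of all genes. ABCG2, an efflux pump known to carry several kinase inhibitors, read 5.38, 5.56 and 5.20 in SKR6CA and 12.41, 12.86 and 12.67 in SKR6LR, a difference of 7.26 (SE 0.135, adjusted p = 9.45e-09), with the controls at 5.25 and 5.48. ABCC4 was higher by 2.88. CYP1A1, an enzyme induced through the aryl hydrocarbon receptor, read 6.17, 6.18 and 5.77 in SKR6CA and 11.65, 11.35 and 11.65 in SKR6LR, a difference of 5.51 (SE 0.137, adjusted p = 3.89e-08). The controls (9.64 and 10.06) lay between the lines. CYP1A2 (4.08) and CYP1B1 (0.98) were higher too, while the receptor gene AHR was lower (-0.72). ABCB1 was not called. CYP2J2 (-1.97), GSTM1 (-1.11) and ABCC5 (-1.09) were lower. Of 18 NRF2 and antioxidant genes 7 were higher and 8 lower (median 0.09), and without SKR6LR replicate 3 the counts were 4 and 8, with own controls 4 and 6, and without multi-transcript probe sets 5 and 4 of 15. HMOX1 (heme oxygenase) read 8.16, 8.06 and 7.98 in SKR6CA and 10.79, 11.38 and 10.52 in SKR6LR, a difference of 2.83 (SE 0.195, adjusted p = 1.01e-05), while NQO1, a classical NRF2 target, was lower at 13.13, 13.17 and 13.08 in SKR6CA and 10.80, 11.41 and 11.20 in SKR6LR, a difference of -1.99 (SE 0.145, adjusted p = 1.42e-05). PGD, of the pentose phosphate pathway, was lower (-1.07). The NRF2 gene itself, NFE2L2, was higher by 1.05. AKR1B10 was higher by 1.38. Set against own controls, the difference was -0.10 for AKR1B10 (not called). Averaging over all probe sets gave 1.09 for ABCC4, -0.44 for PGD and 0.51 for NFE2L2.

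Of 28 genes of amino-acid and unfolded-protein stress 6 were higher and 9 lower (median -0.05), with 53.6% called beside 43.2% of all genes. SLC7A11 (1.05), the cystine transporter, PPP1R15A (0.98) and asparagine synthetase ASNS (0.98) were higher, and HERPUD1 (-1.08), ERN1 (-0.70) and XBP1 lower. DDIT4, an mTOR inhibitor, was lower (-1.91). Of 13 fatty acid synthesis genes 6 were lower and 3 higher (median -0.14). FASN, fatty acid synthase, read 12.38, 12.41 and 12.36 in SKR6CA and 10.11, 9.79 and 9.60 in SKR6LR, a difference of -2.55 (SE 0.124, adjusted p = 1.36e-06), and SREBF1, the factor that drives it, 11.55, 11.38 and 11.52 in SKR6CA and 8.92, 9.25 and 9.20 in SKR6LR, a difference of -2.36 (SE 0.106, adjusted p = 8.81e-07). THRSP (-3.28) and the elongase ELOVL5 (-0.88) were lower, and the desaturase genes FADS3 (1.78), SCD5 (1.14) and FADS2 (0.56) higher. Cholesterol synthesis went the other way, with 9 of 15 higher and 1 lower (median 0.65, own controls 11 and 2). HMGCS1, which makes the substrate of HMG-CoA reductase, read 9.70, 9.62 and 9.57 in SKR6CA and 11.86, 11.55 and 11.78 in SKR6LR, a difference of 2.10 (SE 0.0977, adjusted p = 1.05e-06). MSMO1 (1.52), LSS (1.48), SQLE (1.16), SC5D (1.01) and the sterol carrier STARD4 (1.64) were higher, EBP lower (-0.59). FASN and STARD4 had SKR6CA above both controls, at 10.91 and 11.52 for FASN and 6.13 and 7.35 for STARD4. Relative to own controls the difference was 0.62 for SLC7A11 (not called), -0.45 for ERN1 (not called), 0.05 for DDIT4 (not called) and 0.40 for FADS2 (not called). As a mean over probe sets the difference was -0.39 for ELOVL5 and 2.43 for SCD5. When multi-transcript probe sets were left out, the difference was 0.37 for ASNS, 0.04 for FADS2 (not called) and 0.06 for SC5D (not called).

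Of 38 proliferation genes 20 were lower and 0 higher, with a median of -0.55. Their lower share of 52.6% stood beside 24.2% of all genes, and 33 were lower against own controls. Without SKR6LR replicate 1 the lower genes numbered 30. They numbered 14 to 16 when SKR6LR replicate 3 or any SKR6CA array was left out. UHRF1, which maintains DNA methylation, read 10.84, 10.80 and 10.78 in SKR6CA and 9.43, 7.59 and 8.83 in SKR6LR, a difference of -2.19 (SE 0.393, adjusted p = 0.00228). RRM2, a subunit of ribonucleotide reductase, read 13.16, 13.14 and 13.13 in SKR6CA and 12.06, 9.88 and 11.42 in SKR6LR, a difference of -2.02 (SE 0.467, adjusted p = 0.00833). The proliferation marker MKI67 read 10.56, 10.40 and 10.43 in SKR6CA and 9.96, 9.28 and 9.48 in SKR6LR, a difference of -0.90 (SE 0.162, adjusted p = 0.00235). The SKR6CA arrays were tight, and SKR6LR replicate 2 was the lowest in each of these genes. FOXM1 (-1.38), KIF11 (-1.15), AURKA (-1.01) and TOP2A (-0.62) were lower. Without SKR6LR replicate 2 the counts were 20 lower and 3 higher. Among CDK inhibitors and related genes 4 of 11 were higher and 4 lower. CDKN1C (p57) read 5.04, 4.94 and 5.10 in SKR6CA and 8.20, 8.29 and 8.36 in SKR6LR, a difference of 3.26 (SE 0.0805, adjusted p = 3.71e-08), and CDKN1B (p27) was lower, at 10.97, 11.09 and 11.00 in SKR6CA and 9.00, 8.29 and 8.87 in SKR6LR, a difference of -2.30 (SE 0.171, adjusted p = 1.57e-05). GADD45A was higher by 2.06. RB1 (-1.38) and CCND3 (-1.20) were lower. CDKN2B was higher by 1.37, though SKR6-Vector stood at 10.18 and SKR6 at 5.71. Respiratory chain genes were lower in 19 of 21 cases and higher in 0 (median -0.47), with small differences of -0.21 (SDHD) to -1.05 (NDUFA9, in complex I). NDUFS1 read 11.56, 11.52 and 11.53 in SKR6CA and 10.74, 10.60 and 10.73 in SKR6LR, a difference of -0.85 (SE 0.0731, adjusted p = 3.74e-05). NDUFB5 (-1.01), NDUFV1 (-0.66), SDHA (-0.74) and UQCRC1 (-0.80), of complexes I to III, were lower as well. Own-control differences were 5.85 for CDKN2B. Probe set means gave 0.68 for CDKN2B and -0.32 for NDUFV1. Probe sets without multi-transcript matches gave -0.28 for AURKA (not called). Cyclic loess gave -0.13 for SDHD (not called). When 1 array was left out, TOP2A (-0.65 to -0.61 without SKR6LR replicate 3 or any SKR6CA array) and SDHD (-0.22 to -0.19 without any SKR6LR array or any SKR6CA array) lost their calls.

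Of 20 collagens 12 were higher and 1 lower (median 0.51), with 12 and 2 without SKR6LR replicate 1 and 12 and 0 with own controls. COL4A1, a basement membrane chain, read 5.32, 5.09 and 5.40 in SKR6CA and 10.91, 11.74 and 11.12 in SKR6LR, a difference of 5.99 (SE 0.201, adjusted p = 1.81e-07), and its neighbour on the genome COL4A2 was higher by 4.15. COL9A3 (4.90), COL12A1 (2.18) and COL5A1 (2.90) followed. COL5A2 was lower (-1.94), with SKR6-Vector at 10.56. Of 18 integrins 7 were higher and 1 lower (median 0.12), with 44.4% called beside 43.2% of all genes. ITGB8, which activates TGF-beta, read 4.77, 4.81 and 5.01 in SKR6CA and 11.52, 11.68 and 11.62 in SKR6LR, a difference of 6.75 (SE 0.0899, adjusted p = 2.09e-09), ITGA2 was higher by 3.17, ITGA3 by 1.03, the basal chain ITGB4 by 1.00 and ITGA9 lower (-2.80). Of 19 metalloproteinase and plasminogen genes 8 were higher and 4 lower (median 0.00). The collagenase MMP13 read 10.64, 10.72 and 10.86 in SKR6CA and 4.23, 4.41 and 4.51 in SKR6LR, a difference of -6.35 (SE 0.0982, adjusted p = 3.95e-09). SKR6 (5.21) and SKR6-Vector (7.58) lay between. MMP1 read 7.12, 7.06 and 6.71 in SKR6CA and 4.05, 4.07 and 3.83 in SKR6LR, with SKR6LR at the level of the controls (4.04 and 4.0), a difference of -2.98 (SE 0.126, adjusted p = 6.22e-07). The inhibitor TIMP3 (4.38), the tissue plasminogen activator PLAT (3.90) and MMP12 (2.71) were higher. Own controls gave 0.39 for COL5A2. Over all probe sets the mean gave 2.95 for ITGB8, 0.22 for ITGB4 and -0.92 for ITGA9. Without multi-transcript probe sets the difference was -0.09 for ITGB4 (not called).

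TGF-beta, BMP and ID genes divided evenly, 9 higher and 9 lower of 21 (own controls 10 and 5, multi-transcript probe sets dropped 8 and 4 of 16). ID4, an inhibitor of helix-loop-helix factors, read 6.47, 6.59 and 6.74 in SKR6CA and 13.21, 13.32 and 13.30 in SKR6LR, a difference of 6.68 (SE 0.0891, adjusted p = 2.09e-09). TGFBR3 was higher by 5.58 and INHBA by 3.02, while TGFB3 (-3.03), BMPR1B (-2.93) and LTBP1 (-1.75) were lower. Of 7 IGF-binding proteins 4 were higher and 1 lower (own controls 3 and 0). IGFBP3 read 7.24, 6.93 and 7.04 in SKR6CA and 11.93, 11.53 and 11.78 in SKR6LR, a difference of 4.68 (SE 0.124, adjusted p = 5.11e-08), with SKR6 at 6.83 and SKR6-Vector at 10.69. IGFBP7 was higher by 3.83, IGFBP6 by 0.84 and IGFBP5 lower (-2.64). IGFBP2, higher by 2.58, turned to -0.82 against own controls, with SKR6 at 9.18 and SKR6-Vector at 5.79. Own controls made the difference -0.59 for IGFBP5 (not called).

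Among all genes, the largest differences are given as a description, since these genes were chosen for their size. ADAMTS1, a matrix protease, read 4.64, 4.58 and 4.24 in SKR6CA and 13.50, 13.56 and 13.42 in SKR6LR, a difference of 9.01 (SE 0.115, adjusted p = 2.09e-09). CAPN6 (7.98), the gap junction gene GJA1 (7.76), the RNA-binding protein gene IGF2BP3 (7.71), TCEAL9 (7.69), MGARP (7.67), DSE (7.66), ANXA1 (7.60), the amino acid transporter SLC38A4 (7.47), ACTG2 (7.33), SRGN (7.29), HTRA1 (7.27) and RCN1 (7.26) made up the 15 largest rises with SPARC and ABCG2. In all 15 the mean of SKR6 lay within 2 of that of SKR6CA. The largest fall was in DSCAM-AS1, a long noncoding RNA of luminal breast cancer, with 12.77, 12.79 and 12.77 in SKR6CA and 3.74, 3.76 and 4.14 in SKR6LR, a difference of -8.90 (SE 0.114, adjusted p = 2.09e-09). TRPS1 (-7.60), a GATA-type repressor, SERHL2 (-7.03), CRISP3 (-6.81), the ligand WNT5A (-6.77), KRT4 (-6.72), SELENOP (-6.54), SELENBP1 (-6.41), GPR160 (-6.30), IRX3 (-5.89) and C3orf70 (-5.87) followed, with KITLG, AGR2, MLPH and MMP13 given above. MMP13 was the member of the falls for which SKR6 (5.21) stood nearer to SKR6LR than to SKR6CA. The own-control difference was -2.75 for C3orf70. The mean of all probe sets gave 1.91 for DSE and -2.56 for SELENOP. Leaving out multi-transcript probe sets gave 0.62 for IGF2BP3, 3.56 for SLC38A4 and -0.40 for SELENOP.

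**Figure D5:**
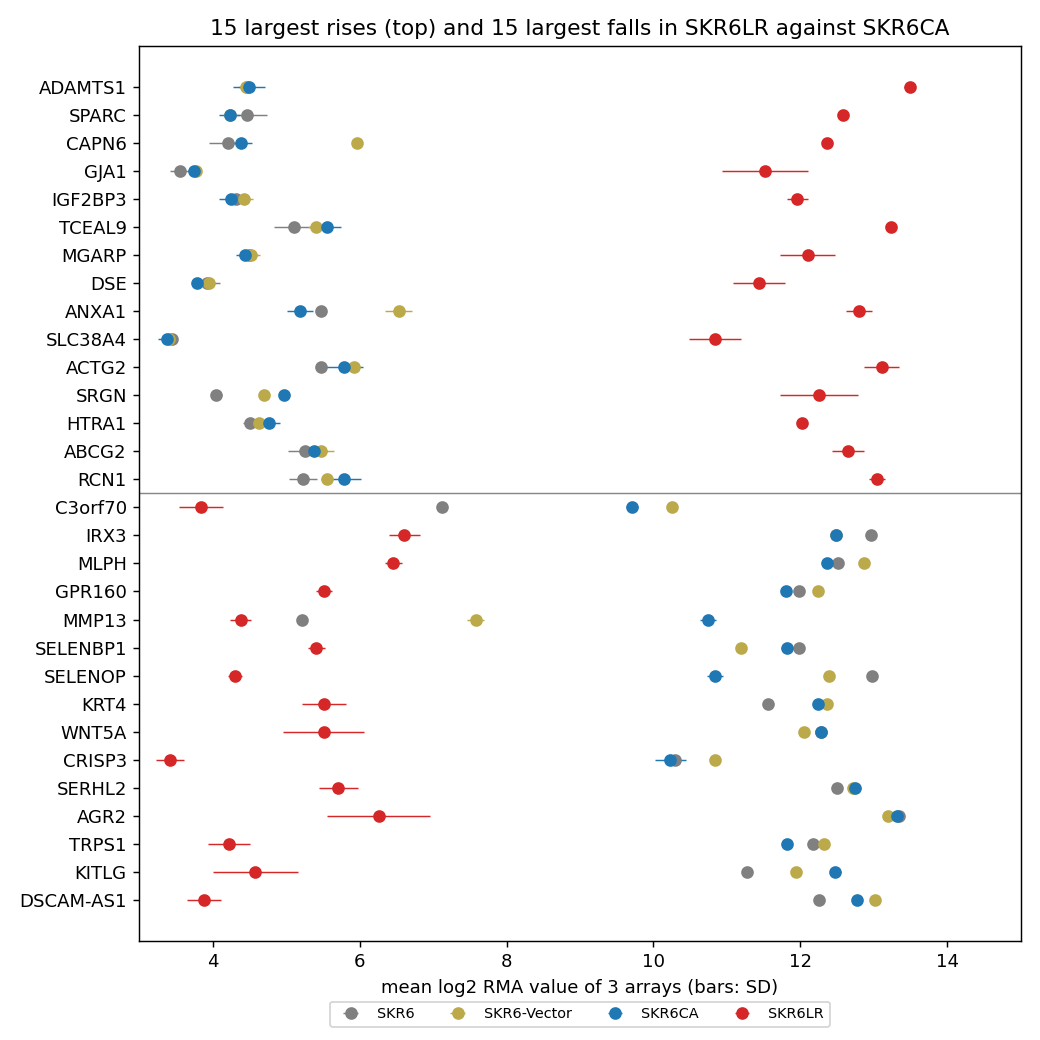
Mean log2 RMA value (n = 3 arrays, bars are SD) in each of the 4 lines for the 15 largest rises and 15 largest falls of SKR6LR against SKR6CA. For the rises SKR6, SKR6-Vector and SKR6CA cluster on the left and SKR6LR stands at 10 or more, and for the falls the order is reversed, except that SKR6 is low for MMP13 and intermediate for C3orf70.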

How the data were processed

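The deposited values are log2 values for 54675 probe sets on 3′ expression arrays. Per the submitters' processing notes the authors used robust multi-array averaging (RMA) and limma, with versions, parameters and the role of limma not given in the sources used here. RMA brings the arrays to a common distribution, which makes levels comparative and compresses small differences near the background. Array medians were 5.74 to 5.77. Precision is limited by the number of arrays, and no detection call was used.

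Gene names came from the 2016 annotation of the platform, in which 41097 probe sets had 1 gene, 1801 several and 11777 were unnamed here. RefSeq (assembly GRCh38.p14) supplied current symbols for 41043 by gene ID, and 54 retained their former one. For each of the 19775 genes the single-gene probe set whose mean over the 12 arrays was highest was used. Of 870 list entries 802 were measured. A gene on probe sets of several genes alone was not tested.

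SKR6LR and SKR6CA were compared by lmFit and eBayes of limma 3.58.1 (R 4.3.3) on their 6 arrays, since the spread of replicates differed between lines, with Benjamini-Hochberg adjustment over all genes and a call at an adjusted p under 0.05. Each line has 3 replicates that its labels call biological. Whether they were derived separately is not given, so p-values measure the spread between cultures. The model was tested on simulated data. In that test, with few genes changed, the share of false calls exceeded the nominal threshold when each line kept its own spread. Same-numbered arrays of the lines are tied by no label. Promoter windows, from 250 bases before to 50 after the start, came from RefSeq.

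The members and gene lists were chosen with earlier results of these data known, and lists are described by counts and medians with no test. The rule for named genes took the NF-kB subunits, EGFR, ERBB2 and ERBB3, all measured members of the NF-kB, chemokine, apoptosis and ERBB lists, from every other list the called members with the largest differences, at most 6, and at most 3 against the direction of most calls, and the 15 largest rises and 15 largest falls without overlap between arrays. Other named genes were chosen after their values were seen. They include IFNB1, IFNL1, IFI27, ISG15, KRT14, KRT5, MKI67, ESR1 and most genes described as not called outside those lists. The alternatives were a model of all 12 arrays, own controls, a replicate block, each array left out, median centring, cyclic loess, a variance trend with robust fitting, array weights, a filter on low values (a mean of at least 6 in either line), averaged probe sets, leaving out _x_at and _s_at probe sets (those with possible matches to several transcripts), testing every probe set and an adjusted p under 0.01.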

Additional observations from a re-analysis of the deposited data

How the results depend on the processing

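The 8550 calls, 3768 higher and 4782 lower in SKR6LR, kept the balance of their directions under most settings. Leaving out each array in turn gave 3141 to 3941 higher and 3942 to 4883 lower genes. Cyclic loess, which moved the median difference from -0.054 to 0.00, gave 4351 higher and 3958 lower, so that 52.4% of calls were higher, against 44.1% without it. Testing every single-gene probe set on its own gave 7013 higher and 9003 lower of 41097 probe sets, 16016 in all, a larger number of tests by construction. An unadjusted p under 0.05 was reached by 9712 genes. With the replicate number as a block 3627 genes were higher and 4500 lower, and 7951 of these 8127 calls were shared with the fit without it. Deviations of same-numbered arrays correlated by 0.059, -0.015 and 0.084, so the numbers do not pair the cultures, and among the genes named here the block removed 8 of 353 calls and added 4.

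Of the 353 called genes named here 261 kept call and direction in every alternative that gave a value, and 25 turned their direction in at least 1. Against own controls the difference was 0.10 for EFNA1, 0.63 for F3, 0.24 for GADD45B, 0.13 for IL18, 0.97 for BMF, 0.63 for CASP8, 1.22 for BTC, 0.92 for KRT15, 0.45 for ALDH1A3, 2.30 for ALDH1A1, 0.05 for DDIT4, 0.73 for PFKFB3, 0.39 for COL5A2 and 0.41 for MITF, which were lower or, for CASP8 and BTC, below 0 and not called in the direct comparison, and -0.10 for AKR1B10, -0.82 for IGFBP2, -0.10 for IFI6 and -1.80 for BST2, which lay above 0 there. Without _x_at and _s_at probe sets it was -0.17 for ITCH, -0.32 for LTB, -0.14 for IL1A, -0.02 for CFLAR, -0.16 for BOK, -0.05 for FAS, -0.14 for MERTK, -0.09 for ITGB4, -0.09 for POSTN and -0.17 for FGFR2, and with the mean of probe sets -0.42 for LAMP2. These genes were then read by other probe sets, and the cause of the difference was not tested. CFB, at 0.00 and not called, was 0.96 without SKR6LR replicate 1, the lowest array of its line for this gene, and -0.70 without replicate 2.

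The limits of the comparison are those of 6 arrays. A missed threshold does not show equal levels. All 12 arrays in the model gave 9878 calls. As labelled, virus, puromycin, drug and derivation differ together between the lines and cannot be told apart. Low values carry no detection call, and the filter on low values left 12381 genes, of which 7841 were called.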

Other observations

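Hypoxia and glycolysis genes, which were not described above, differed in both directions. Of 29 measured, 9 were higher in SKR6LR than in SKR6CA and 12 lower (median -0.16). The glucose transporter SLC2A3 read 5.38, 5.07 and 5.05 in SKR6CA and 11.14, 11.69 and 11.28 in SKR6LR, a difference of 6.20 (SE 0.155, adjusted p = 3.95e-08), while SLC2A1 was lower (-0.52). The oxygen sensor EGLN3 (3.01) and the peptide hormone ADM (2.55) were higher. The glycolytic enzymes ALDOA (-0.60), TPI1 (-0.61) and GPI (-0.70) were lower, as were the carbonic anhydrase CA12, with 12.27, 12.25 and 12.37 in SKR6CA and 7.94, 9.15 and 8.83 in SKR6LR, a difference of -3.65 (SE 0.267, adjusted p = 1.41e-05), and NDRG1 (-2.15). PFKFB3 was lower (-1.38). Own controls made the difference 0.73 for PFKFB3. If 1 array was omitted, SLC2A1 (-0.52 to -0.50 without SKR6LR replicate 3 or SKR6CA replicate 1 or 3) lost its call.

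Of 23 lysosome and autophagy genes 6 were higher and 7 lower (median 0.02), with 56.5% called beside 43.2% of all genes. The cathepsin CTSL read 10.70, 10.81 and 10.77 in SKR6CA and 11.65, 12.59 and 12.23 in SKR6LR, a difference of 1.40 (SE 0.208, adjusted p = 0.000809), and the autophagy receptor SQSTM1 (0.83) and the membrane protein LAMP2 (0.58) were higher. The cathepsins CTSZ (-1.74), CTSD (-1.41) and CTSA (-1.13) and the autophagy gene WIPI1 (-1.22) were lower. Without SKR6CA replicate 1 the counts were 3 and 4, and without SKR6CA replicate 2 they were 3 and 5. With probe set means, 2 members were higher and 9 lower. Of 16 AP-1 and immediate-early factors 7 were higher and 5 lower (median 0.07). EGR3 (2.63), FOSL2 (1.27) and FOSL1 (0.96) were higher, and NR4A1 (-1.03), BATF (-1.02) and JUN (-0.79) lower. JUN read 11.95, 12.08 and 12.02 in SKR6CA and 11.31, 11.11 and 11.25 in SKR6LR, above the control means of 10.43 and 11.05. The own-control difference was -0.17 for JUN (not called). Averaging over all probe sets gave 0.36 for SQSTM1 (not called) and -0.42 for LAMP2. Without multi-transcript probe sets the difference was 0.56 for SQSTM1 (not called) and -0.20 for NR4A1 (not called). When 1 array was left out, SQSTM1 (0.82 to 0.87 without SKR6LR replicate 3 or any SKR6CA array) lost its call, and SQSTM1 (0.49 without SKR6LR replicate 2) moved by over 1.5 times.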
